A study of Mus musculus with 4 samples.

Results

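The genes of PI3K, AKT and FOXO signalling, Irs2, Pik3ca, Pik3r1, Inpp5d, Akt1, Tsc1, Mtor, Foxo1 and Foxo3, were followed in RNA that had been immunoprecipitated from mouse early erythroid progenitors. They were taken by gene symbol: every probe set assigned to exactly 1 gene symbol, that of one of these genes, was used. All 9 genes were present, each with 1 probe set, among 19938 genes with a symbol of their own and 35556 probe sets in all. There were 2 samples captured by an antibody to an RNA-binding protein (RBP) and 2 by control rabbit IgG, and each was hybridised to its own whole-transcript Affymetrix array. Both groups came from the same material: C57BL/6 fetal liver at E14.5, depleted of cells carrying Sca-1, CD34, CD41, CD16/32 or markers of mature blood cells, then sorted for c-Kit and low CD71. The RBP has no name in the labels. It is taken to be ZFP36L2, an AU-rich element binding protein, from memory of the publication, and the files hold no check of this. Whether replicates were separate preparations of cells is not stated in the labels, so all p-values below rest on a spread between arrays that may be technical.

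Class I PI3K is a lipid kinase recruited to activated receptors and adaptors, where it makes the lipid PIP3, and lipid phosphatases such as SHIP1 remove it. PIP3 brings AKT to the membrane, and active AKT restrains the TSC complex, which frees the GTPase RHEB to switch on mTORC1, and phosphorylates the FOXO transcription factors, which then leave the nucleus. In red cell precursors the pathway runs downstream of KIT and the erythropoietin receptor, and FOXO3 is known for its part in erythroid maturation and the oxidative stress response.

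The deposited levels are on a log2 scale, 1 unit being a 2-fold step. The median level of all probe sets was 5.57 and 5.62 on the RBP arrays, against 5.85 and 5.93 on the IgG arrays, and the interquartile range was 3.73 and 3.61 against 2.91 and 2.87. Pearson's r over genes, which do not count as replicates, was 0.993 for the RBP pair, 0.977 for the IgG pair and 0.952 to 0.959 for an RBP array against an IgG array. A background level of 5.35 was set at the 95th percentile of the olfactory, vomeronasal and taste receptor genes, which have no known role in these cells. All 9 erythroid progenitor markers lay above it and 5 of them were higher in the test described below. Their mean level was 10.40 and 10.55 on the RBP arrays against 9.79 and 9.97 on the IgG arrays. Each had a mean level above 9 over the 4 arrays. Of all genes, 57.8% were higher at mean levels of 9 to 10 and 47.2% above 10. The granulocyte and mast cell markers had 6 of 8 above background. Their mean was 7.88 and 7.05 on the RBP arrays against 8.36 and 7.19 on the IgG arrays, but Elane was lower (-1.44; limma, adjusted p = 0.0461). Hepatocyte markers had 5 of 7 above background and a mean of 6.30 and 5.77 on the RBP arrays against 6.37 and 5.73 on the IgG arrays. Macrophage markers had 4 of 8 above background and a mean of 6.10 and 5.75 on the RBP arrays against 6.21 and 5.80 on the IgG arrays, with Cd68 lower (-1.59; limma, adjusted p = 0.00568). Lymphoid markers had 5 of 5 above background and a mean of 6.56 and 6.01 on the RBP arrays against 6.58 and 5.93 on the IgG arrays. None of them passed. In the other lists 1 of 3 measured terminal erythroid markers (Epb42), 1 of 4 megakaryocyte (Gp9) and 1 of 6 endothelial and stromal markers (Pdgfrb) were higher. The rest of those lists did not pass. Epb42 and Gp9 had mean levels of 6.99 and 6.81, and 23.4% of all genes at 6 to 7 were higher. Pdgfrb was at 7.11, and 47.1% of all genes at 7 to 8 were higher. The part of these markers in the results below was not tested.

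The question put to the 9 genes was whether the RBP antibody recovered their mRNAs beyond control IgG. Of these, 8 were higher on the RBP arrays, by 1.98-fold to 2.74-fold, and 0 were lower. The exception was Pik3r1, the regulatory subunit of PI3K, at 1.54-fold. For each of the 9 genes both RBP arrays lay above both IgG arrays. Testing was by limma, with p-values adjusted by Benjamini-Hochberg over all 19938 genes and a threshold of 0.05, and 23.8% of all genes were higher and 6.54% were lower. Among all genes, both RBP arrays lay above both IgG arrays for 37.4% and below them for 36.2%. The median difference was 1.24 for the 9 genes and -0.023 for all genes, on the log2 scale. All genes include many at or below background, whereas the 9 genes all lay above it. Of the 12898 genes above background 36.3% were higher, and their median difference was 0.39. Both RBP arrays lay above both IgG arrays in 7055 of those 12898 and below them in 2971. With 2 arrays a group an exact permutation p cannot fall below 0.333, so the calls depend on the variance that limma borrows from other genes.

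**Figure D1:**
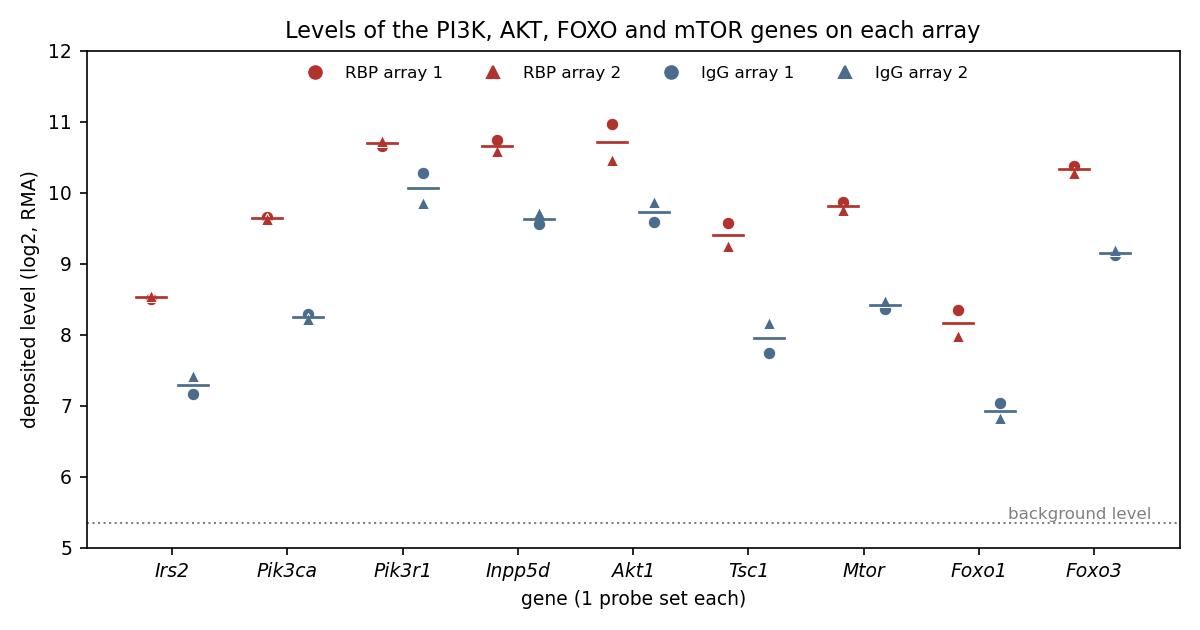
Deposited log2 level (y axis) of each of the 9 genes (x axis) on the RBP arrays (red) and the IgG arrays (blue); circles are array 1, triangles array 2, horizontal bars group means, and the dotted line the background level of 5.35. In each gene both RBP points lie above both IgG points, with the narrowest gap in Pik3r1.

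At the receptor end stood Irs2 (probe set 10576971), an adaptor that docks PI3K to activated insulin, IGF and cytokine receptors. Its log2 level was 8.51 and 8.55 on the RBP arrays, against 7.16 and 7.42 on the IgG arrays. The groups were separated by 1.09 while the arrays of a group differed by at most 0.26. Irs2 was therefore 2.36-fold higher, a log2 difference of 1.24 ± 0.16 (SE; limma, adjusted p = 0.00619). In hepatocytes Irs2 is a textbook target of FOXO factors, which bind an insulin response element in its promoter. The promoters of Irs2 and Akt1 are shown for the FOXO-type letters they hold, as context for the pathway and not for the antibody, which captured RNA. The search covered 250 bases before to 50 after the start site, in RefSeq windows of build GRCm38.p6, for TGTTTTG (the insulin response letters) and TGTTTAC (the FOXO core letters) on both strands. Of 11 windows for the 9 genes, 1 held the first and 1 the second, against 6.28% and 3.65% of all 32851 windows. Capitals mark the match, and a match of letters is no evidence of binding. The Irs2 window is chr8:11008880-11009179, minus strand, and the Akt1 window, 1 of 2 for that gene, is chr12:112674835-112675134, minus strand.
Irs2: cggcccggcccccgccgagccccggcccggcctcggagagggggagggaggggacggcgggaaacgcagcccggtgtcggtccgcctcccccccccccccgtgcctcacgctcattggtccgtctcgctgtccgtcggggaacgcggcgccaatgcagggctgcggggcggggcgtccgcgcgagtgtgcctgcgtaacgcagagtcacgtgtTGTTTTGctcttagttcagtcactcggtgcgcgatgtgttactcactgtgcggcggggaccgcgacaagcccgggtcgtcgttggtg
Akt1: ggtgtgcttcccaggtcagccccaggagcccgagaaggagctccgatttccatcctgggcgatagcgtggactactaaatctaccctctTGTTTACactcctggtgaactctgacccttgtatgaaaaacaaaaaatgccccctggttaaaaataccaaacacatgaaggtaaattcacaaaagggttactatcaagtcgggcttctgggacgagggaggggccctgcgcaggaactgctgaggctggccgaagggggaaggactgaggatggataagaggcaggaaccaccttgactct

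Of the class I PI3K subunits in the set, Pik3ca passed the test and Pik3r1 did not. Pik3ca (probe set 10491331), which encodes the catalytic subunit p110-alpha, had a log2 level of 9.65 and 9.63 on the RBP arrays, against 8.29 and 8.22 on the IgG arrays. The arrays of a group were within 0.07 of each other and the groups 1.34 apart. The log2 difference was 1.39 ± 0.14 (SE; limma, adjusted p = 0.00558), or 2.61-fold. Pik3r1 (probe set 10411782), which encodes the p85-alpha subunit that holds p110 inactive until it meets a phosphorylated receptor, had a log2 level of 10.67 and 10.73 on the RBP arrays, against 10.28 and 9.86 on the IgG arrays. Here the IgG arrays differed by 0.42, more than the 0.38 between the groups. The log2 difference of 0.63 ± 0.19 (SE) did not pass (limma, adjusted p = 0.0541), and its unadjusted 95% interval ran between 0.16 and 1.09. It passed at the same difference with the replicate number as a block (limma, adjusted p = 0.0178), with either filter on level (0.0435 and 0.0455) and with the trend and robust options (0.0464). Centred on the receptor genes that set the background level, it passed at 0.94 (limma, adjusted p = 0.00800). With the same levels of its 1 probe set, it did not pass in the mean over probe sets (0.0541) or with all probe sets tested (0.0559). Nor did it pass with quantile normalization, at 0.36 (0.247), or with the trend of the difference on level subtracted, at -0.018 (0.964). Its difference was 0.66 without RBP array 1, 0.59 without RBP array 2, 0.84 without IgG array 1 and 0.41 without IgG array 2. Leaving out an array leaves its group with 1, which is then assumed to vary like the other group, and the SE of Pik3r1 was 0.30 without an RBP array and 0.14 without an IgG array. The difference between the responses of Pik3ca and Pik3r1 was not tested.

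Inpp5d (probe set 10348244) encodes SHIP1, the blood-cell phosphatase that converts PIP3. Its log2 level was 10.74 and 10.59 on the RBP arrays, against 9.56 and 9.71 on the IgG arrays, without overlap. It was 2.04-fold higher, with a log2 difference of 1.03 ± 0.15 (SE; limma, adjusted p = 0.00785). Akt1 (probe set 10402766), the kinase recruited by PIP3, had a log2 level of 10.97 and 10.46 on the RBP arrays, against 9.59 and 9.87 on the IgG arrays. Its RBP arrays were 0.51 apart, the widest gap within a group among the 9 genes, while the groups were 0.59 apart. Akt1 was 1.98-fold higher, a log2 difference of 0.99 ± 0.22 (SE; limma, adjusted p = 0.0236). Without RBP array 1 neither passed, with log2 differences of 0.95 for Inpp5d (limma, adjusted p = 0.0703) and 0.73 for Akt1 (limma, adjusted p = 0.152), and Akt1 did not pass without IgG array 1 either (0.85; limma, adjusted p = 0.0590). Quantile normalization also ended the call of Akt1 (0.68; limma, adjusted p = 0.130).

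Below AKT, the log2 difference was larger for both genes of the mTOR branch than for Akt1 itself, though those differences were not compared by a test. Tsc1 (probe set 10470584), which encodes hamartin, the scaffold of the complex that holds RHEB inactive, had a log2 level of 9.58 and 9.25 on the RBP arrays, against 7.75 and 8.17 on the IgG arrays. It showed the largest difference of the 9 genes, 2.74-fold or 1.45 ± 0.21 on the log2 scale (SE; limma, adjusted p = 0.00742), although its IgG arrays were 0.42 apart. Mtor (probe set 10510305), the kinase of both mTOR complexes, had a log2 level of 9.86 and 9.76 on the RBP arrays, against 8.37 and 8.47 on the IgG arrays. The arrays of a group were within 0.11, and the log2 difference was 1.39 ± 0.15 (SE; limma, adjusted p = 0.00558), or 2.62-fold. Irs2, Pik3ca, Tsc1, Mtor and Foxo3 passed in each fit that left out 1 array, which, with the spread of 1 group alone in it, is no measure of stability.

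The FOXO factors, which AKT keeps out of the nucleus, were both higher. Foxo1 (probe set 10491962) had a log2 level of 8.35 and 7.99 on the RBP arrays, against 7.04 and 6.82 on the IgG arrays. The groups were 0.95 apart, and the log2 difference was 1.24 ± 0.19 (SE; limma, adjusted p = 0.00805), or 2.35-fold. Foxo3 (probe set 10368888), the member of the family best known in red cell precursors, had a log2 level of 10.38 and 10.27 on the RBP arrays, against 9.12 and 9.20 on the IgG arrays. Arrays of a group lay within 0.11 of each other, and the log2 difference was 1.17 ± 0.15 (SE; limma, adjusted p = 0.00596), or 2.25-fold. Foxo1 did not pass without RBP array 1 (1.06; limma, adjusted p = 0.0578).

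More strongly detected genes tended to be higher on the RBP arrays, and all 9 genes lay above background. Each gene was therefore also set beside the genes whose mean level was within 0.5 of its own, 806 to 2532 genes apiece, as a description. The median difference of those genes was 0.64 to 0.79, and 47.5% to 58.7% of them were higher. Of the 9 genes, 8 exceeded the median of their neighbours in level, and 6 (Irs2, Pik3ca, Tsc1, Mtor, Foxo1 and Foxo3) exceeded the upper quartile. A larger difference was found in 8.90% of the genes near Tsc1, 9.65% of those near Mtor, 11.3% of those near Pik3ca, 26.8% of those near Akt1 and 50.9% of those near Pik3r1. Once the loess trend of the difference on level had been subtracted, none of the 9 genes passed (limma, adjusted p from 0.0597 to 0.964), against 4.87% of all genes called higher. The log2 differences were then 0.63 for Tsc1, 0.58 for Mtor, 0.57 for Pik3ca, 0.52 for Foxo1, 0.47 for Irs2, 0.42 for Foxo3, 0.34 for Inpp5d, 0.31 for Akt1 and -0.018 for Pik3r1. A wider recovery of abundant mRNAs by the RBP antibody and a narrower range of signal on the IgG arrays cannot be told apart in this design.

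**Figure D2:**
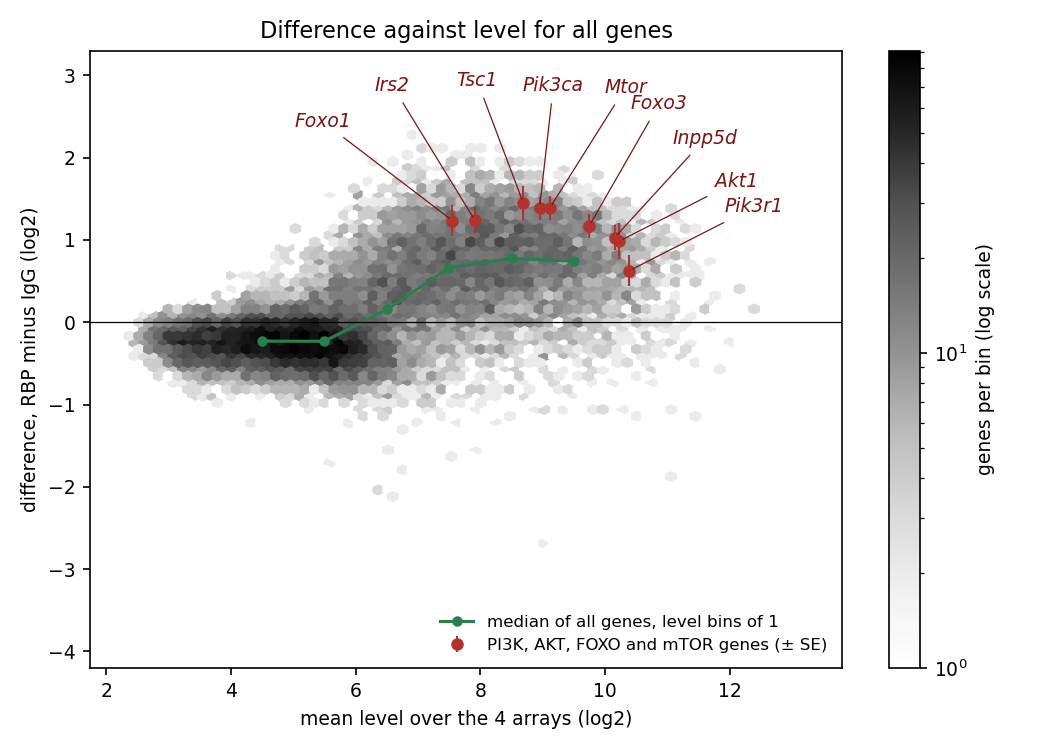
Difference in log2 level, RBP minus IgG (y axis), against the mean log2 level over the 4 arrays (x axis) for all 19938 genes, shaded by the number of genes per bin on a log scale. The green line joins the medians of level bins 1 unit wide, which run between -0.23 and 0.78, and the red points (± SE) are the 9 genes, with differences between 0.63 for Pik3r1 and 1.45 for Tsc1. The line covers levels between 4 and 10 and is not the set of neighbours in level described for each gene.

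The rest of the pathway was taken from 10 lists of genes by role, holding 115 genes beside the 9. Of these, 6 had no probe set with a symbol of their own and were not analysed here. Of the 109 measured, 48 were higher (44.0%), 4 were lower and 57 did not pass, with a median log2 difference of 0.61. Of these genes 104 lay above background, and 36.3% of all genes above background were higher. The share differed with level. It was 23.4% of all genes at mean levels of 6 to 7, and 47.1% to 57.8% in bins above 7. The pathway genes were not matched on level, so 44.0% is not shown to exceed the share at like levels. Without RBP array 1 the count of higher genes was 15 and without RBP array 2 it was 18, against 8.65% and 10.3% of all genes. With quantile normalization it was 16, against 11.1% of all genes, and with the level trend removed it was 8. The counts of single lists below are descriptions, to be read beside the shares of all genes by level.

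Among receptors and adaptors, 2 of 9 were higher (22.2%) and 7 did not pass. They were Gab1, a docking protein for PI3K and SHP2 (log2 difference 1.0008 ± 0.14, SE; limma, adjusted p = 0.00698), and Igf1r, the IGF1 receptor (0.69 ± 0.16; adjusted p = 0.0238). Of 8 further class I PI3K subunits, 3 were higher (37.5%). They were Pik3cd, the p110-delta subunit of blood cells (1.11 ± 0.23), Pik3r2, or p85-beta (0.95 ± 0.17), and Pik3cb, or p110-beta (0.75 ± 0.19). Of 5 other phosphoinositide phosphatases, 2 were higher (40%), namely Inpp4b (0.80 ± 0.23) and Inpp5e (0.74 ± 0.18). The IgG level of Inpp4b, 5.76 and 5.55, stood close to the background of 5.35, and its RBP arrays were at 6.74 and 6.18. Without RBP array 1 none of these 7 genes passed (limma, adjusted p from 0.0573 to 0.278), and without RBP array 2 only Pik3cd and Inpp4b did. With quantile normalization Inpp4b was the 1 gene of these 7 to pass, and with the level trend removed 0 of the 7 did. Inpp4b did not pass without IgG array 1 (0.91; adjusted p = 0.0578) or IgG array 2 (0.70; adjusted p = 0.0989).

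Among AKT kinases, regulators and substrates, 6 of 9 were higher (66.7%, not matched on level). Phlpp1 and Phlpp2, phosphatases that switch AKT off, differed by 1.75 ± 0.17 (SE; limma, adjusted p = 0.00558) and 1.36 ± 0.15. Phlpp1 had a log2 level of 7.62 and 7.66 on the RBP arrays, against 5.72 and 6.06 on the IgG arrays, so that its IgG signal stood close to background. Tbc1d4, the AKT substrate AS160 of glucose transport, differed by 1.33 ± 0.17 (adjusted p = 0.00601). Of 14 further FOXO factors and regulators, 7 were higher (50%) and 1 was lower. Usp7, a deubiquitinase that acts on FOXO proteins, differed by 1.41 ± 0.17, Stk4, the kinase MST1, by 1.18 ± 0.15, and Sirt1, a deacetylase of FOXO proteins, by 1.18 ± 0.14. The lower gene was Ywhae, the 14-3-3 epsilon protein, named after its values had been seen. It had a log2 level of 10.54 and 10.46 on the RBP arrays, against 11.79 and 11.28 on the IgG arrays, a difference of -1.04 ± 0.21 (limma, adjusted p = 0.0165), and the call was lost when either RBP array was left out, at -1.08 without the first (adjusted p = 0.0762) and -0.997 without the second (0.0864). The count of higher genes in the FOXO list was 3 without either RBP array, and that of the AKT list was 5 without RBP array 1 and 3 without RBP array 2.

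Of 22 genes known as FOXO targets, 8 were higher, 2 were lower and 12 did not pass, with a median log2 difference of 0.29. Their share of higher genes, 36.4%, is close to the 36.3% of all genes above background. In level bins above 7 the share of all genes was 47.1% to 57.8%. Rbl2, or p130, a relative of the retinoblastoma protein, had a difference of 1.63 ± 0.15 (SE; limma, adjusted p = 0.00558), Sesn1, a stress-induced sestrin, of 1.02 ± 0.15, and Pink1, a kinase of mitophagy, of 0.97 ± 0.15. The lower genes, named after their values had been seen, were Cited2, a transcription coregulator (-0.57 ± 0.16; adjusted p = 0.0433), and Prdx3, a mitochondrial peroxiredoxin (-0.66 ± 0.17; adjusted p = 0.0341). Rbl2 was the 1 gene of this list called higher without RBP array 1 and without RBP array 2. Sesn1 had an adjusted p of 0.0649 and 0.0533 in these settings, and Pink1 of 0.0768 and 0.0599. Cited2 (adjusted p from 0.0622 to 0.243) and Prdx3 (0.0603 to 0.260) did not pass without RBP array 1, RBP array 2 or IgG array 1. Both also moved with the scaling. Centred on the chemosensory genes they did not pass, at -0.25 for Cited2 (limma, adjusted p = 0.258) and -0.34 for Prdx3 (0.162), and with the level trend removed they were at -1.32 and -1.23.

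Between AKT and mTORC1, 2 of 4 further genes were higher (50%). Rheb, the GTPase that activates mTORC1, had a log2 level of 9.37 and 9.31 on the RBP arrays, against 7.48 and 7.42 on the IgG arrays. That is 3.72-fold, or 1.90 ± 0.14 on the log2 scale (SE; limma, adjusted p = 0.00558), and Tsc2, the partner of Tsc1 that acts on RHEB, differed by 1.28 ± 0.15 (adjusted p = 0.00568). Of 10 further mTOR complex genes, 7 were higher (70%, against 47.1% to 57.8% of all genes in level bins above 7). They were led by Rptor, the raptor subunit of mTORC1 (1.42 ± 0.32), Telo2, which helps to assemble the kinase (1.25 ± 0.23), and Mapkap1, the SIN1 subunit of mTORC2 (1.22 ± 0.19). The IgG arrays of Rptor were far apart, at 7.74 and 8.70, and its RBP arrays were at 9.72 and 9.56. Of 17 genes that carry the amino acid signal, 9 were higher (52.9%), led by Mios (1.71 ± 0.17), Rragb (1.54 ± 0.16) and Rragc (1.32 ± 0.18). Mios is part of GATOR2, and the Rrag genes encode the Rag GTPases that dock mTORC1 on lysosomes. The IgG level of Rragb, 5.19 and 5.22, was below background, so the size of its difference is uncertain. With quantile normalization 0 of the 10 mTOR complex genes were called higher, and the same count was found with the level trend removed and without RBP array 1. It was 2 when RBP array 2 was left out. Under quantile normalization the differences were 0.92 for Rptor (limma, adjusted p = 0.126), 0.92 for Telo2 (0.0595) and 0.69 for Mapkap1 (0.0747). Without RBP array 1 they were 1.34, 1.08 and 1.21 in the same order (adjusted p = 0.0877, 0.0787 and 0.0543). The count of the amino acid list was 3 without RBP array 1, 4 without RBP array 2, 3 with quantile normalization and 2 with the trend removed.

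Of 11 genes listed as mTORC1 outputs, 2 were higher (18.2%) and 1 was lower, with a median log2 difference of 0.20. The share higher was 36.3% of all genes above background, and 47.1% to 57.8% of all genes in level bins above 7. Larp1, which represses the translation of ribosomal protein mRNAs, had a log2 level of 12.03 and 11.92 on the RBP arrays, against 10.69 and 10.90 on the IgG arrays, a difference of 1.18 ± 0.16 (SE; limma, adjusted p = 0.00636). Its other probe set gave 1.32. Eef2k, the kinase of elongation factor 2, differed by 0.74 ± 0.15 (adjusted p = 0.0167). The other Eef2k probe set, with a lower mean level, gave 1.31 ± 0.36, and the mean over probe sets gave 1.02. Rps6, the ribosomal protein at the end of the S6 kinase branch, had a log2 level of 11.93 and 11.98 on the RBP arrays, against 12.42 and 12.48 on the IgG arrays, a difference of -0.50 ± 0.14 (adjusted p = 0.0462). All 8 of its probe sets had negative differences, from -0.74 to -0.38, and 3 of the 8 passed over all probe sets. Ribosomal protein genes have many near-identical processed copies, so these probe sets may share signal. Eef2k did not pass without RBP array 1 (0.70; limma, adjusted p = 0.151) or RBP array 2 (0.78; 0.108), and its difference was 0.20 with quantile normalization (0.455) and -0.073 with the level trend removed. The call of Rps6 was lost in 7 of 13 alternatives. Its difference was -0.48 without RBP array 1 (limma, adjusted p = 0.307), -0.52 without RBP array 2 (0.246) and -0.18 when centred on the chemosensory genes (0.408).

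**Figure D3:**
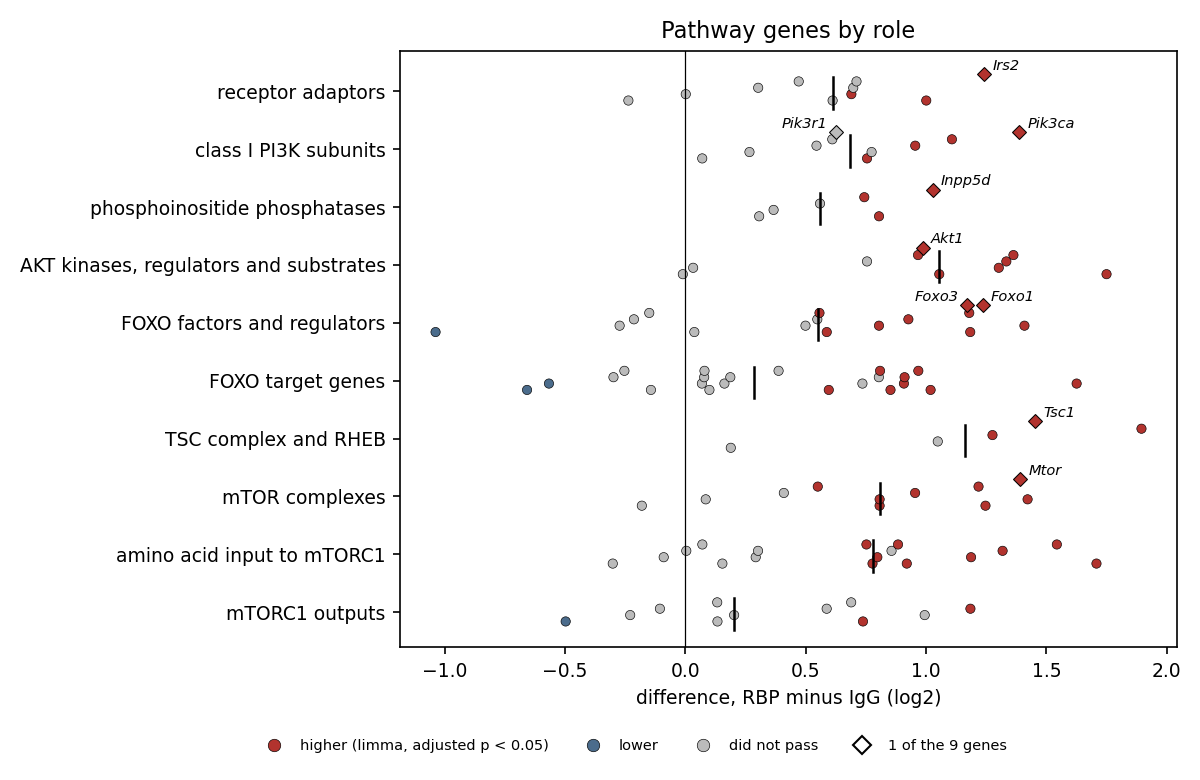
Log2 difference, RBP minus IgG (x axis), of 109 pathway genes (circles) and of the 9 genes followed here (diamonds, named) in 10 lists by role (y axis); red passed as higher, blue as lower and grey did not pass, and the vertical bars are list medians without the 9 genes. The medians run between 0.20 for mTORC1 outputs and 1.16 for the TSC complex and RHEB, which has 4 circles.

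Of the 30 called genes named from the lists, 8 kept their call under every alternative run on them, namely Phlpp1, Tbc1d4, Usp7, Rbl2, Rheb, Mios, Rragb and Larp1. None of the 9 genes did so, because removing the level trend ended every call among them. The 30 genes were named for their calls and differences on these same arrays, so a kept call is no independent support. Rragb was run in only 12 of the alternatives, and its IgG arrays, at 5.19 and 5.22, lay below background.

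The 4-array patterns of Tsc1 and Pik3r1, the genes with the largest and smallest difference of the 9, were also set against 18292 other genes by the root mean square difference of gene-centred log2 levels. Closest to Tsc1 were Ago4 (0.017), Hira (0.022) and Bysl (0.024), with log2 differences of 1.44, 1.47 and 1.44. Ago4 lay below background on the IgG arrays, at 4.81 and 5.19. Closest to Pik3r1 were Chic2 (0.013), Ruvbl2 (0.018) and Lsm6 (0.027), with log2 differences of 0.64, 0.61 and 0.60. The measure describes 4 arrays and has no test.

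**Figure D4:**
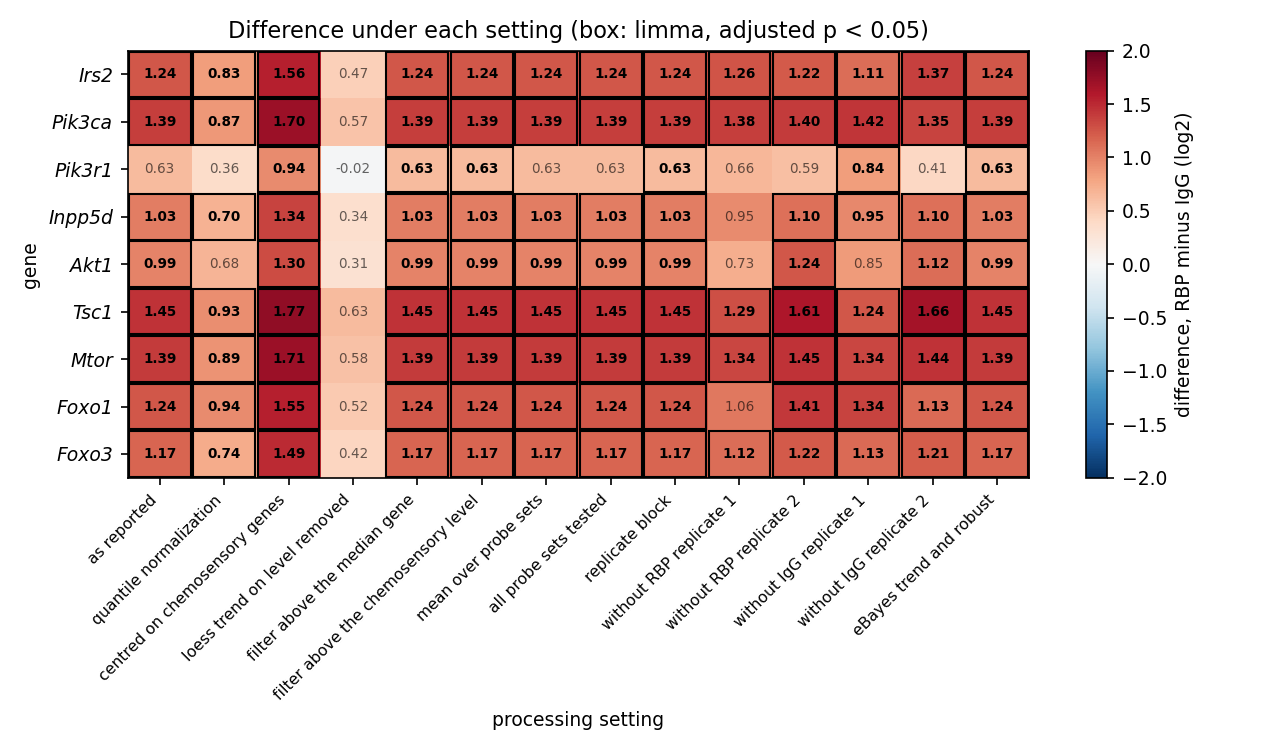
Log2 difference, RBP minus IgG (colour and printed value), of the 9 genes (rows) as reported and under 13 alternative settings (columns); boxes mark values with a limma adjusted p under 0.05. Every value is above 0 except that of Pik3r1 with the level trend removed (-0.018), and that column holds no box.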

How the data were processed

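RNA from 2 RBP and 2 IgG immunoprecipitates of E14.5 fetal liver progenitors was measured. The authors deposited 1 log2 level per probe set and array, with RMA and affy named in the submitters' processing notes. Sources used here do not give versions, background step or build. Values of 1.83 to 13.87 fit that scale. The arrays differ in median and spread, so distributions were not made equal after summarisation. Scanner files were not used here, and the number of arrays limits the precision.

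Probe sets were named through the platform annotation: 21789 of 35556 had 1 symbol, 1621 several and 12146 none there. Entrez identifiers of all 9 genes matched RefSeq (GRCm38.p6). A gene with several probe sets kept the 1 of highest mean. Groups come from sample titles. RBP minus IgG was fitted in R 4.3.3 with limma 3.58.1 (lmFit, eBayes; 2 residual and 3.76 prior degrees of freedom), two-sided, with no filter. The fit was also run on simulated data with independent noise, shifts in randomly drawn genes and no trend of the difference on level. That run checks the code and gives no support to the calls. The genes, pathway lists, markers and alternatives were chosen with earlier results of these data known. Named were the 9 genes, up to 3 called genes per list by absolute difference, and 3 genes nearest to Tsc1 and to Pik3r1. RBP minus IgG was taken within each gene. Levels of different probe sets were compared to choose 1 per gene, to set the background and to group genes by level. Differences in response between probe sets were not corrected for here.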

Additional observations from a re-analysis of the deposited data

How the results depend on the processing

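The 13 alternatives gave 117 values for the 9 genes, of which 97 stayed on the same side of the threshold in the same direction. That count is no measure of stability, because many of the differences could not move. Each of the 9 genes had 1 probe set, so the mean over probe sets and the fit of all probe sets used the same levels. The filters on level, the replicate block and the trend and robust options also left every difference of the 9 genes unchanged. Subtracting a loess fit of the difference against level, with span 0.3, gave values of 0.47 for Irs2, 0.57 for Pik3ca, -0.018 for Pik3r1, 0.34 for Inpp5d, 0.31 for Akt1, 0.63 for Tsc1, 0.58 for Mtor, 0.52 for Foxo1 and 0.42 for Foxo3, with 0 of the 9 called by limma. In that setting the medians were 0.47 for the 9 genes and 0.073 for the 109 other pathway genes, of which 8 were higher and 7 lower, and 971 genes in all were higher. The values of Pik3cb (-0.070), Inpp5e (-0.048), Eef2k (-0.073), Chic2 (-0.081), Ruvbl2 (-0.20) and Lsm6 (-0.17) turned negative. Over all genes the median difference was -0.023 as reported and 0.16 with quantile normalization, which gave 0.68 for Akt1, which did not pass, medians of 0.83 and 0.33, 16 higher pathway genes, and 2207 higher and 553 lower genes in all. Centring on the chemosensory genes set that median at 0.29 and gave 0.94 for Pik3r1, which passed, medians of 1.55 and 0.93, 1 lower pathway gene and 317 lower genes in all. The higher share of all calls was 78.4% as reported, 95.7% with that centring and 46.1% without the trend. Pik3r1 also passed, at 0.63, with a filter at the median gene, a filter at the chemosensory level, the trend and robust options and the replicate block. The filter at the median gene left 95 pathway genes with a median of 0.74 and 564 lower genes in all. Leaving out 1 array in turn gave differences of 0.41 to 0.84 for Pik3r1, 0.95 to 1.10 for Inpp5d, 0.73 to 1.24 for Akt1 and 1.06 to 1.41 for Foxo1. Those of the 9 genes called higher numbered 5 to 8 and their median was 1.12 to 1.24. Other pathway genes numbered 15 to 57 higher and 0 to 4 lower, and all genes 1724 to 5153 higher and 99 to 2905 lower. The titles number the arrays alike in both groups, and same-numbered arrays deviated together with a correlation of 0.255 across genes, but with 2 pairs the numbers are not shown to pair the samples. With the replicate block 9 of the 9 genes, and 5885 genes higher and 2199 lower in all, were called. The causes of these changes were not tested.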
